A study of Sus scrofa with 13 samples.

Results

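The mitochondrial ribosomal proteins are described here as the 75 genes, of 28232 in the deposited pig gene table, whose symbol is MRPL or MRPS followed by a number and at most 1 letter. Of these, 47 carry a large subunit name (MRPL) and 28 a small subunit name (MRPS). Gene symbols alone define the set, with no cut on measured values, but the class was chosen with earlier results of these data known. All 75 matched a RefSeq gene of the Sscrofa11.1 assembly, and 74 are listed as protein coding, while MRPS12 is listed as a long non-coding RNA. The study sequenced poly(A)-selected RNA of pig preimplantation embryos from in vitro fertilisation (IVF) or from in vivo development, to compare stages and origins. Its 13 libraries fall into 5 groups: IVF 4-cell embryos (n = 3), IVF blastocysts (n = 3), IVF hatched blastocysts (n = 3), in vivo blastocysts (n = 2) and in vivo hatched blastocysts (n = 2). Each library was made from pooled embryos, and the labels name no breed, genotype, embryo age or culture medium and no treatment beyond the origin. They do not say that libraries came from separate animals or fertilisation rounds, so each p-value covers library-to-library spread alone, and that spread may be technical. Origin cannot be told apart from any animal, collection day or batch that went with it.

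Mitochondrial ribosomes translate the few messages encoded by mitochondrial DNA, which specify core subunits of the respiratory chain and of ATP synthase. Their ribosomal RNAs are mitochondrial transcripts, whereas every protein is made from a nuclear gene and imported. Some of these proteins have bacterial counterparts and others are found in mitochondria only. In mammals the oocyte supplies the mitochondria of the embryo, and cleavage stages rely on stored messages until the embryonic genome is transcribed.

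Count totals were 33259311 to 39273867 per library, and levels are given as counts per 1000000 of the library total (CPM). All 75 genes passed the low-count filter in both models used, so no member was lost to it. KRT8 and KRT18 are keratins of trophectoderm, the outer cell layer of the blastocyst. They were high in the 10 blastocyst and hatched libraries and between 0 and 3.44 CPM in 4-cell libraries. Of the 8 trophectoderm markers examined, CDX2, GATA2 and GATA3 were also higher in the later libraries, while TFAP2C and TEAD4 overlapped between the stages. ELF5 went the other way, at 5.15, 1.14 and 1.01 CPM in 4-cell libraries and 0.171 to 0.879 CPM in the others. All 10 oocyte markers examined were detected in every 4-cell library, with summed levels of 20440 to 34080 CPM there and 0.362 to 19.6 CPM in the other 10 libraries. Replicates were uneven in the 4-cell and the in vivo hatched group. Library 1 of the 4-cell group correlated with libraries 2 and 3 at 0.808 to 0.815 (Pearson, log2 CPM over genes), against 0.925 between those and 0.969 to 0.982 within the other groups. Its markers went both ways within the cell type lists. Its KLF4 was 281 CPM against 30.1 and 16.1, and its GATA6 was 113 CPM against 2.50 and 1.22. TFAP2C was at 775 CPM against 142 and 86.9, and TEAD4 at 73.1 CPM against 11.6 and 3.86. It was the lower in POU5F1 (376 CPM against 846 and 793) and in GATA4 (58.1 CPM against 276 and 200). CDX2, KRT8 and KRT18 were at 0 in it. In vivo hatched library 2 held 6.85% of its counts in 13 messages of the mitochondrial genome, against 1.49% in the other, whose count column carries no number and which is called the unnumbered library. The 6 hypoblast markers summed to 612.9 CPM in library 2 and 188 CPM in the unnumbered one, with PDGFRA at 222 and 20.3 CPM.

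The count of 1 member cannot be used as a level. MRPL53, a large subunit protein, lies on chromosome 3 at 68570198 to 68573584, and 99.9% of that span is also covered by the gene CCDC142. In every library all reads of the pair went to a single gene. MRPL53 had 20.4 CPM in 4-cell library 3, 122 in IVF blastocyst library 2, 120.3 in IVF hatched library 3 and 154 in in vivo blastocyst library 1, and 0 in the other 9 libraries, where CCDC142 held 52.6 to 164 CPM. The pair summed to 117 to 164 CPM in the 10 blastocyst and hatched libraries, and to 114, 52.6 and 20.4 CPM in 4-cell libraries 1, 2 and 3. Fold changes of MRPL53 are therefore left out of the ranges below. In all, 25 of the 75 genes overlap the span of another gene in the table. MRPL43 lies wholly within the span of TWNK, the mitochondrial DNA helicase, and MRPS7 within that of GGA3. Whether the counting used strand is not given in the sources used here, so levels of these genes are uncertain.

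**Figure D1:**
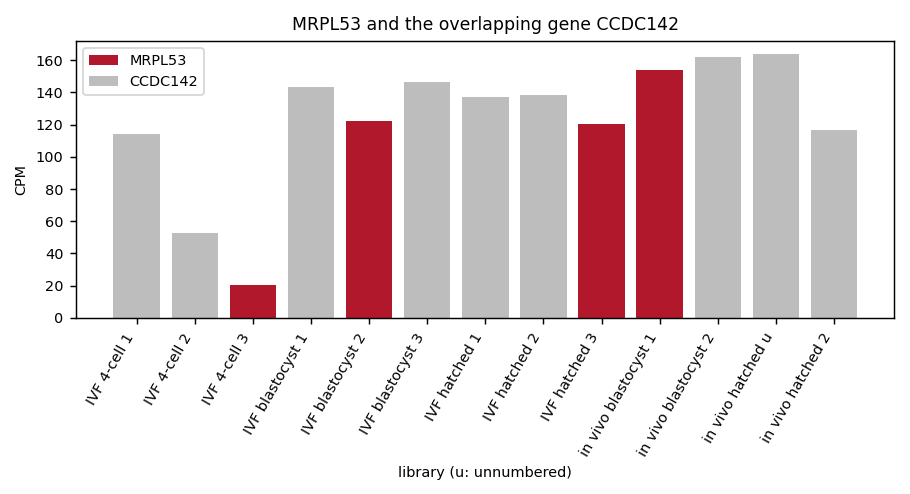
CPM of MRPL53 (red) and of CCDC142 (grey), 1 bar per library, on a linear axis from 0. Each library has a bar for 1 of the 2 genes only, and the blastocyst and hatched bars lie between 117 and 164 CPM whichever gene holds the reads.

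As a group the genes took a larger share of the counts after cavity formation. The 75 genes held 0.502%, 0.385% and 0.371% of counts in the 4-cell libraries. They held 0.960%, 0.848% and 0.980% in IVF blastocysts and 0.897%, 0.988% and 0.891% in IVF hatched blastocysts. In vivo blastocysts had 1.04% and 0.953%, and in vivo hatched blastocysts had 1.08% (unnumbered) and 0.807% (library 2). MRPL53 is included in these shares. Without it, 4-cell library 3 held 0.3685%, IVF blastocyst library 2 0.8357%, IVF hatched library 3 0.8785% and in vivo blastocyst library 1 1.025%. The 4-cell libraries were below all others, and the 4 later groups overlapped one another. The median member stood at 14.6 to 43.6 CPM in 4-cell libraries and at 85.4 to 122 CPM in the other 10. Fewer transcripts per cell and fewer cells of a kind cannot be told apart in such bulk libraries, and a share of counts says nothing of RNA per embryo.

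At the 4-cell stage a few genes carried much of the class. The 10 members with the most counts held 44.7%, 56.9% and 61.4% of member counts in the 3 4-cell libraries, and 32.6% to 35.8% in each of the others. In library 2 the leading genes were MRPL15, MRPS26, MRPS16, MRPL37 and MRPL4, and in library 3 they were MRPS26, MRPL37, MRPL15, MRPL11 and MRPS16. From the blastocyst on, MRPL37 had the most counts in all 10 libraries. Members above 50 CPM numbered 17 to 32 in 4-cell libraries and 55 to 64 in the others.

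Per kilobase, as the deposited fragments per kilobase and 1000000 reads (FPKM), the highest mean levels over 12 libraries were those of MRPL37 (382), MRPL20 (221) and MRPL28 (196). The lowest were those of MRPL53 (12.4, with the limit above), MRPL50 (12.3) and MRPL52 (8.81). The order of the 75 mean FPKM values in IVF blastocysts and IVF hatched blastocysts was nearly the same (Spearman's rho 0.984, over genes, which are not independent). In vivo blastocysts were less like either IVF group in this order (0.866 and 0.869), and stood at 0.869 to the 1 in vivo hatched library with a usable FPKM column. That hatched library stood at 0.913 to IVF blastocysts and at 0.911 to IVF hatched blastocysts. The 4-cell order stood furthest away, at 0.446 to 0.524 against the other 4 groups.

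**Figure D2:**
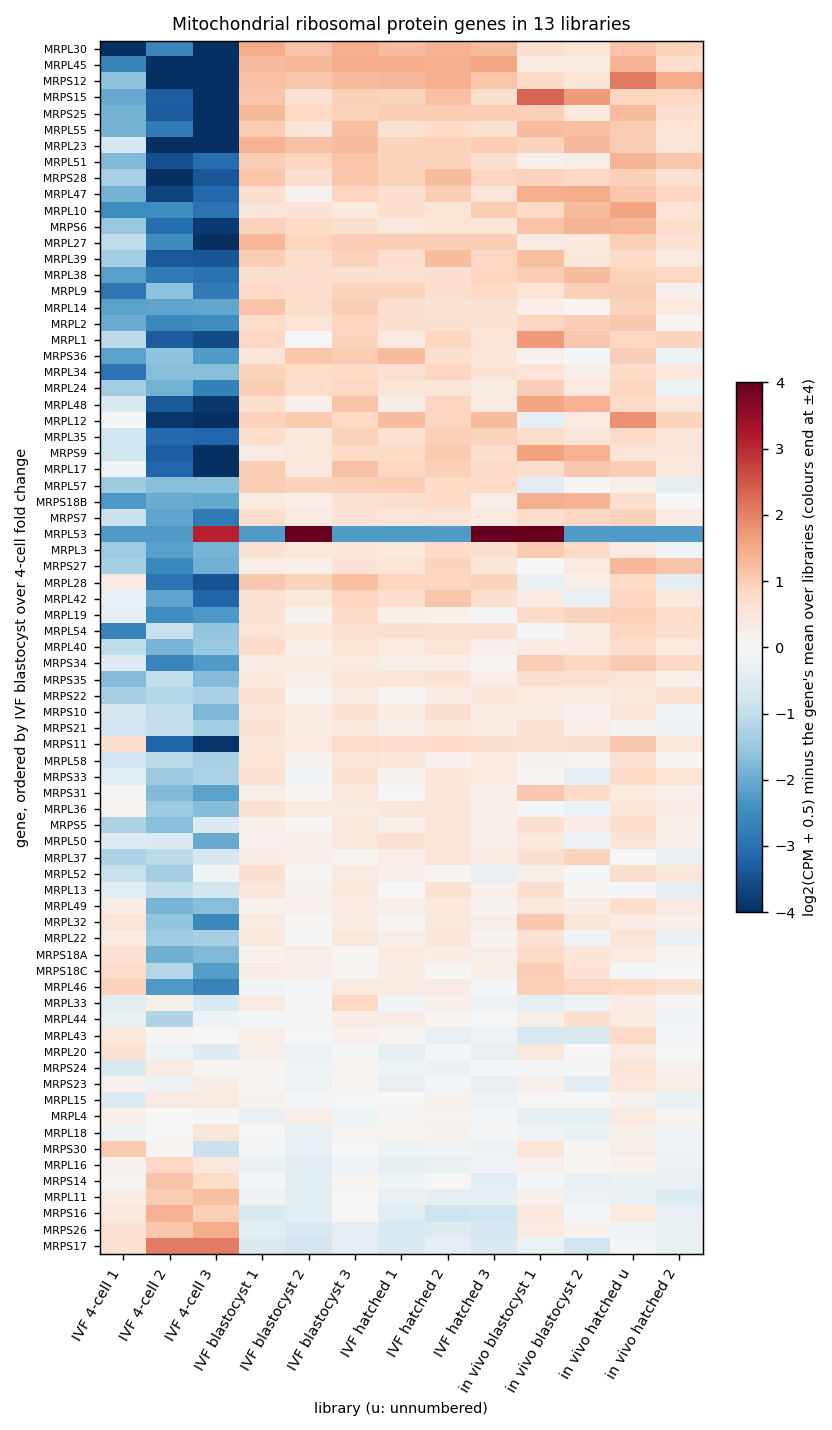
Heat map of the 75 genes (rows, ordered by their change from 4-cell embryo to IVF blastocyst) in 13 libraries (columns), as log2(CPM + 0.5) minus the gene's mean over libraries, with colours ending at -4 and 4. Most rows are blue in the 3 4-cell columns, the bottom rows with MRPS17, MRPS26 and MRPS16 are red there, and the MRPL53 row switches between libraries.

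The first comparison asked how the class differs between cleavage and blastocyst in IVF embryos. From 4-cell embryo to IVF blastocyst, 51 of the 75 genes rose and 3 fell (edgeR quasi-likelihood test, adjusted p under 0.05 over 16312 genes). Of all genes tested, 25.7% were higher and 30.6% were lower. The median log2 fold change was 2.23 over the 75 genes and -0.23 over all genes. To IVF hatched blastocyst, 50 rose and 4 fell, against 25.7% and 30.9% of all genes, with medians of 2.13 and -0.24. These comparisons share the 4-cell libraries. Of the 75 genes, 50 were higher in both, 3 were lower in both and 20 were called in neither. MRPL23 was called higher in blastocysts only and MRPL11 lower in hatched blastocysts only.

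By name, both subunits held more higher than lower genes at this step. Of the 47 MRPL genes 33 rose and 0 fell, with a median of 2.48. Of the 28 MRPS genes, which include the large subunit parts MRPS18A and MRPS30 and also MRPS36, 18 rose and 3 fell, with a median of 1.80. Genes with a bacterial counterpart (28 higher and 2 lower of 43) and those found in mitochondria only (20 higher and 1 lower of 28) were both mostly higher. MRPS18A, MRPS18B, MRPS36 and MRPL55 were placed in neither list, and the difference between the lists was not tested.

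The rise with the smallest p-value was that of MRPL38, a mitochondria-only protein of the central protuberance of the large subunit (chromosome 12, 5514420 to 5521671). MRPL38 was at 31.0, 19.9 and 17.4 CPM in 4-cell libraries, at 222, 226 and 220.3 in IVF blastocysts and at 218, 225 and 257 in IVF hatched blastocysts. Every later library was above every 4-cell library. The log2 fold change to blastocyst was 3.57 ± 0.27 (SE, adjusted p = 3.3e-05, edgeR).

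MRPL45, which sits at the peptide exit tunnel and contacts the inner membrane (chromosome 12, 23751921 to 23766476), showed one of the widest gaps between the stages. It stood at 17.2, 6.43 and 4.10 CPM there, and at 269, 274 and 313 CPM in IVF blastocysts. The groups did not overlap, and the log2 fold change was 5.29 ± 0.48 (adjusted p = 6.4e-05, edgeR). MRPL30 had the largest fitted rise, 5.54 ± 0.68 on the log2 scale, from a 4-cell mean of 1.46 ± 1.37 CPM (SD, n = 3). MRPL2, the counterpart of a bacterial protein near the peptidyl transferase centre, rose by 3.34 ± 0.28, MRPL14 by 3.35 ± 0.31 and MRPL57 by 2.88 ± 0.27 on the same scale. MRPL10, the base of the stalk that recruits translation factors, rose by 3.97 ± 0.36 to hatched blastocyst.

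MRPL12 forms that stalk (chromosome 12, 1200458 to 1203817). It was at 14.0, 0.571 and 0 CPM in 4-cell libraries and at 28.9, 31.7 and 26.5 in IVF blastocysts, so the groups did not overlap. Its fold change did not pass the test (3.04 ± 1.46, adjusted p = 0.105, edgeR), and the 4-cell values were widely spread. MRPS12, a decoding-centre protein (chromosome 6, 47728518 to 47732042), was at 30.9, 1.44 and 2.43 CPM in 4-cell libraries and at 214, 205 and 227 CPM in IVF blastocysts. Its rise of 4.64 ± 1.01 on the log2 scale passed (adjusted p = 0.00441, edgeR).

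The other genes given in every comparison have particular roles. MRPL58, which has a release-factor domain and can free peptides from stalled ribosomes, rose by 1.72 ± 0.27, and MRPS36, now assigned to the oxoglutarate dehydrogenase complex, by 3.23 ± 0.40. The 3 MRPS18 genes encode relatives of a single bacterial protein. MRPS18B rose by 2.77 ± 0.33, whereas MRPS18A, a part of the large subunit despite its name, had 1.10 ± 0.55 (adjusted p = 0.12, edgeR) and MRPS18C had 0.99 ± 0.61 (adjusted p = 0.195, edgeR). MRPS30, also a large subunit protein, had -0.09 ± 0.37 and had the most counts of any member in 4-cell library 1, at 305 CPM.

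The 3 genes that fell in both comparisons are all of the small subunit. MRPS17, a counterpart of bacterial S17 (chromosome 3, 16946344 to 16950870), was at 68.5, 191 and 189 CPM in 4-cell libraries, 30.5, 26.6 and 34.9 in IVF blastocysts and 30.3, 35.0 and 30.1 in IVF hatched blastocysts. The 4-cell libraries were all above the later ones, with library 1 nearest to them. MRPS17 fell by 2.11 ± 0.47 on the log2 scale to blastocyst (adjusted p = 0.00512, edgeR). MRPS26, a mitochondria-only protein (chromosome 17, 32629281 to 32631434), was at 200.0, 289 and 378 CPM and then at 100.4, 89.2 and 104 CPM, with a log2 fold change of -1.37 ± 0.36 (adjusted p = 0.0106, edgeR). MRPS16 (chromosome 14, 76071017 to 76074639) was at 141, 278 and 206 CPM and then at 70.9, 76.9 and 107 CPM. Its log2 fold change of -1.08 ± 0.36 (adjusted p = 0.0301, edgeR) was no longer called in 4 of 6 fits that left out a library, with an adjusted p of up to 0.123.

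**Figure D3:**
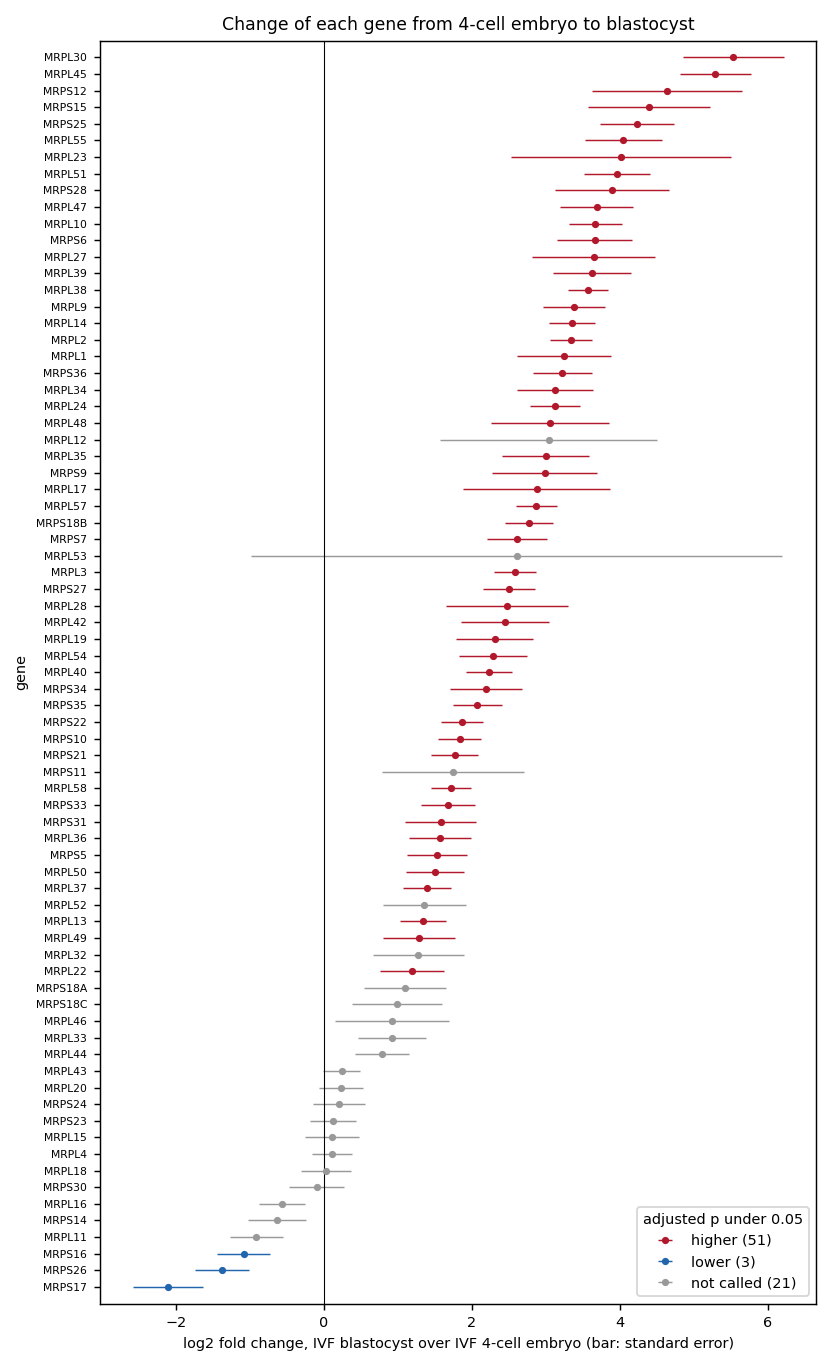
Log2 fold change of each of the 75 genes in IVF blastocysts over IVF 4-cell embryos (horizontal axis; bars, standard error), coloured by the edgeR call at an adjusted p under 0.05. The 51 higher genes reach 5.54 (MRPL30), the 3 lower genes reach -2.11 (MRPS17), and 21 were not called.

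The 4-cell libraries were not alike in these genes. In library 1, 31 of the 75 genes (41.3%) were above 2 times their level in both other 4-cell libraries, against 22.4% of all genes tested. MRPL23 was at 11.3, 0.451 and 0 CPM, MRPS11 at 118, 7.46 and 4.39 CPM, and MRPL28 at 283, 27.9 and 19.0 CPM. In these genes library 1 lay well above its fellows, and for MRPS11 it reached the blastocyst mean of 107 CPM. Of the 75 genes, 17 (22.7%) were instead below both other libraries, against 37.8% of all genes tested; MRPL15 was at 164 CPM against 308 and 310.5 CPM. By the same measure 62 of 84 cytosolic ribosomal proteins (73.8%) and 21 of 65 nuclear oxidative phosphorylation subunits (32.3%) were above 2 times both. The same library was the higher in KLF4 and GATA6 and the lower in POU5F1 and GATA4, as given above. The part of these differences in the members' levels was not tested. Without library 1, 64 of the 75 genes were called in each stage comparison, 58 higher and 6 lower, against 66.0% and 66.4% of all genes tested in those fits.

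Genes that work with the mitochondrial ribosome were also mostly higher in IVF blastocysts than in 4-cell embryos. Among all genes the shares were 25.7% higher and 30.6% lower. Other proteins of the particle had 3 of 5 genes higher, led by GADD45GIP1 (3.69 ± 0.37). Translation factors had 9 of 13 higher and 0 lower, led by GFM2, a ribosome recycling factor (3.18 ± 0.29). Aminoacyl-tRNA synthetases and related enzymes had 10 of 19 higher and 2 lower, with QRSL1 at 3.21 ± 0.40 and IARS2, the isoleucyl enzyme, at -1.79 ± 0.27. Assembly factors had 11 of 21 higher and 1 lower, with MPV17L2 at 5.16 ± 0.56 and the helicase DHX30 at -2.17 ± 0.33. Mitochondrial transcription and RNA processing had 8 of 15 higher, led by HSD17B10, a subunit of mitochondrial RNase P (4.48 ± 0.36).

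Nuclear genes of the cytosolic ribosome and of the respiratory chain were mostly higher as well. Cytosolic ribosomal proteins had 68 of 84 genes higher with a median of 2.65, and nuclear subunits of oxidative phosphorylation had 60 of 65 higher with a median of 3.60, against 2.23 for the members. The messages of the mitochondrial genome, which these ribosomes translate, went the other way, with 0 of 13 higher, 7 lower and a median of -1.01. Differences between these lists were not tested.

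The second comparison asked how IVF blastocysts differ from in vivo blastocysts. Only 9 of the 75 genes were called, 3 higher and 6 lower in IVF. Of all 15528 genes tested 10.8% were called, 6.09% higher and 4.74% lower. Medians were -0.04 over members and 0.05 over all genes on the log2 scale. Higher in IVF were MRPL57, MRPL45 and MRPL51, all large subunit proteins found in mitochondria only. Lower in IVF were MRPS9, MRPS15, MRPS18B, MRPS26, MRPL47 and MRPL46.

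MRPL57 (chromosome 11, 1320846 to 1321829) was at 79.5, 74.4 and 76.9 CPM in IVF blastocysts and at 28.4 and 40.6 CPM in in vivo blastocysts. The groups were far apart, and the log2 fold change was 1.14 ± 0.25 (adjusted p = 0.0174, edgeR). MRPL45 was at 269, 274 and 313 CPM against 143 and 141 CPM, with a log2 fold change of 0.97 ± 0.24 (adjusted p = 0.0269, edgeR). MRPL51 was at 101, 91.8 and 109 CPM against 57.9 and 61.0 CPM, with 0.73 ± 0.21 (adjusted p = 0.0472, edgeR).

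MRPS9 and MRPS15 are small subunit counterparts of bacterial S9 and S15. MRPS9 (chromosome 3, 49626796 to 49681437) was at 97.7, 108 and 133 CPM in IVF blastocysts and at 242 and 208 CPM in vivo. MRPS15 (chromosome 6, 92541506 to 92547839) was at 156, 108 and 139 CPM against 365 and 235 CPM. For both, each in vivo library was above each IVF library, with log2 fold changes of -1.03 ± 0.23 (adjusted p = 0.0175) and -1.21 ± 0.27 (adjusted p = 0.0193, both edgeR). MRPS18B (chromosome 7, 23166314 to 23172718) was at 129, 118 and 146 CPM against 273 and 253 CPM, with -1.04 ± 0.26 (adjusted p = 0.0288, edgeR). Neither relative of MRPS18B was called: MRPS18A had -0.52 ± 0.21 and MRPS18C -0.63 ± 0.25. MRPS26 had -0.75 ± 0.20, MRPL47 had -0.90 ± 0.25 and MRPL46 had -0.84 ± 0.24. Of the remaining genes given throughout, MRPL12 had 0.92 ± 0.32, MRPS12 0.50 ± 0.25, MRPL58 0.25 ± 0.24, MRPS30 -0.48 ± 0.24 and MRPS36 0.82 ± 0.39, none of them called.

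These calls rest on few libraries. Without in vivo blastocyst library 1 none of the 75 genes was called, and with all 13 libraries in 1 fit none was. With in vivo blastocyst library 1 left out, the share of all genes called fell too. Without IVF blastocyst library 1, 2 or 3 the counts were 2, 1 and 5. The shares of all genes called in these fits were 5.43%, 4.57% and 7.77%, against 10.8% with none left out. MRPL45, MRPL51, MRPS18B and MRPS26 lost their call in each of those fits, and MRPL57 kept it in each. MRPS9 and MRPL47 lost it without IVF blastocyst library 1 or 2, and MRPS15 without library 2.

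At the hatched stage 1 of the 75 genes was called between origins, higher in IVF, against 11.8% of all genes (6.96% higher and 4.88% lower). MRPL57 was at 78.3, 66.5 and 66.8 CPM in IVF hatched blastocysts, and at 46.2 (unnumbered) and 30.3 CPM in in vivo ones. All IVF libraries were above both in vivo libraries, with a log2 fold change of 0.96 ± 0.25 (adjusted p = 0.0296, edgeR). It was called in 1 of 5 fits that left out a library, and MRPL57 overlaps SKA3 over 29.2% of its span. The 74 genes other than MRPL53 had log2 fold changes between -0.71 and 0.96, with standard errors of 0.17 to 0.38. Median changes were 0.06 over members and 0.04 over all genes.

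Other genes of mitochondrial translation were also called between origins, and whether they differed from the members was not tested. Of all genes tested, 6.09% were higher and 4.74% lower in IVF in blastocysts. In hatched blastocysts 6.96% were higher and 4.88% lower. Whether any list differed from these shares was not tested. In blastocysts the initiation factor MTIF3 (-1.63 ± 0.23), the small subunit protein PTCD3 (-1.03 ± 0.20), the assembly factor MALSU1 (-1.07 ± 0.24), the mitochondrial RNA polymerase POLRMT (-0.85 ± 0.23) and the threonyl enzyme TARS2 (-0.83 ± 0.23) were lower in IVF. Counts lower in IVF were 1 of 13 translation factors, 1 of 5 other ribosome proteins, 4 of 21 assembly factors, 2 of 15 transcription and processing genes and 1 of 19 synthetases, with 0 higher in each. In hatched blastocysts PTCD3 (-0.96 ± 0.20), TARS2 (-1.20 ± 0.23), the tRNA processing enzyme ELAC2 (-1.64 ± 0.23), TACO1 (-1.58 ± 0.32) and RBFA (-1.10 ± 0.20) were lower in IVF, and GFM2 (1.26 ± 0.24), TRMT2B (1.54 ± 0.33) and HSD17B10 (0.84 ± 0.24) were higher. The counts there, higher and lower in IVF, were 2 and 2 of 13 translation factors, 0 and 1 of 5 other ribosome proteins, 1 and 1 of 21 assembly factors, 1 and 2 of 15 transcription and processing genes and 0 and 2 of 19 synthetases. Of the 13 mitochondrial genome messages, 7 were lower in IVF blastocysts (median -1.36) and 11 in IVF hatched blastocysts (median -2.01), with 0 higher. Without in vivo hatched library 2, a check added after the values were seen, 2 were lower and the median was -0.96. In blastocysts the same check gave 3 lower without IVF library 2 or in vivo library 1, 4 without IVF library 3, and 5 or 6 without the other libraries, with medians of -1.23 to -1.57.

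The balance of the subunits differed between origins in total counts. The ratio of MRPL to MRPS counts, by name, was 1.73 to 1.89 in the 6 IVF blastocyst and hatched libraries and 1.46 to 1.57 in the 4 in vivo ones, without overlap. With MRPS18A and MRPS30 counted in the large subunit, where they lie, the ranges were 1.92 to 2.12 and 1.68 to 1.77. Without MRPL28, MRPL45 and MRPL37 the ranges by name were 1.33 to 1.45 and 1.19 to 1.26, again without overlap. The ratio of the median large to the median small subunit gene overlapped, at 0.712 to 0.915 in IVF and 0.729 to 0.744 in vivo. MRPL28 was at 460, 402 and 504 CPM in IVF blastocysts and at 178 and 263 CPM in vivo, and its log2 fold change of 1.03 ± 0.32 was not called (adjusted p = 0.0631, edgeR). These ratios include MRPL53, whose count cannot be used as a level. They were looked at after the values were seen, and no test was made of them.

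**Figure D4:**
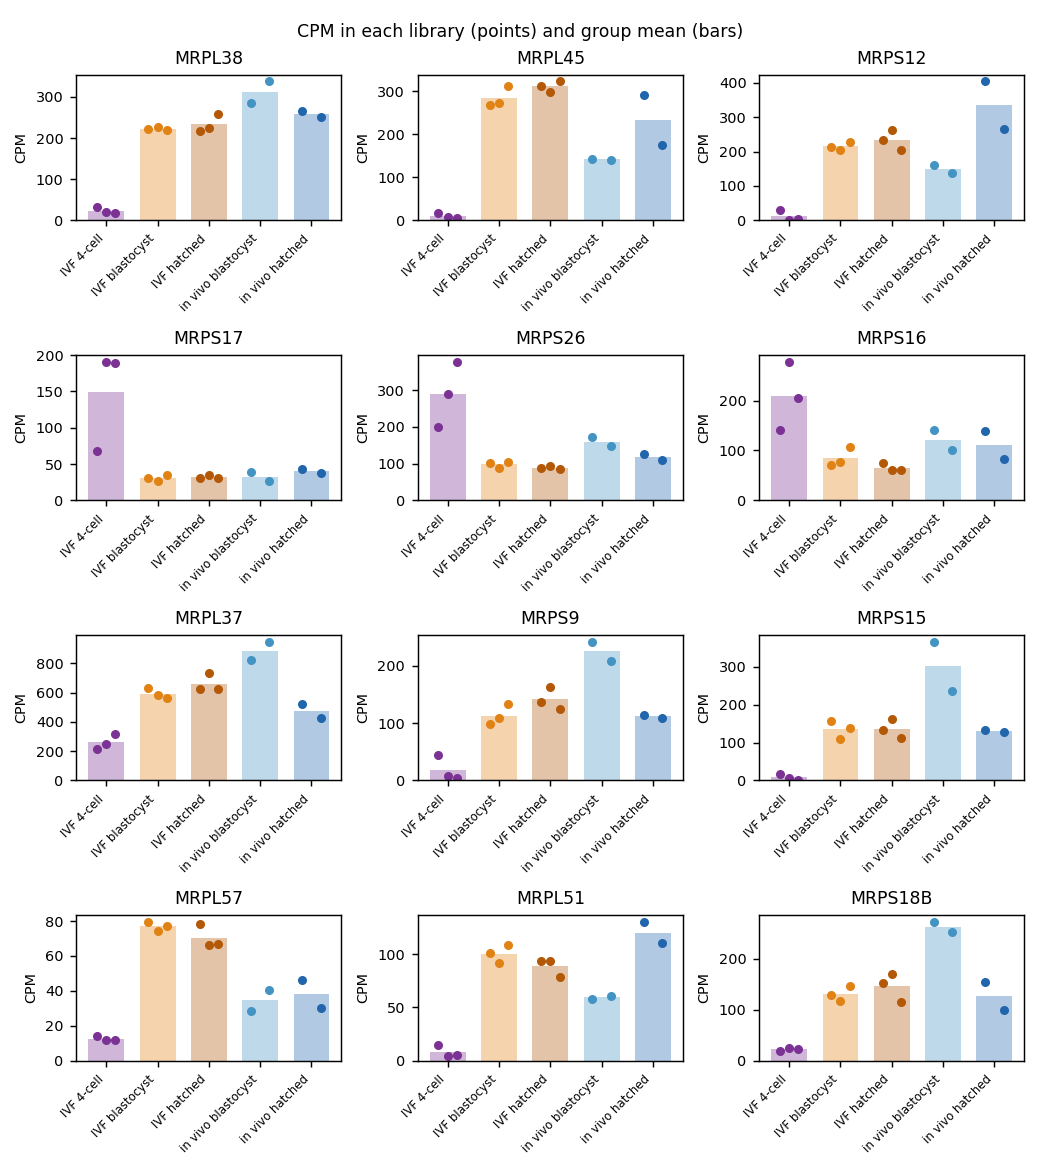
CPM of 12 of the genes in each library (points) and the mean of each group (bars), on linear axes from 0 that differ between panels. MRPL38, MRPL45 and MRPS12 lie near 0 in 4-cell embryos, MRPS17, MRPS26 and MRPS16 are highest there, and MRPS9, MRPS15 and MRPS18B are highest in in vivo blastocysts.

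The third comparison asked what changes at hatching, when the blastocyst leaves the zona pellucida. In in vivo embryos 11 of the 75 genes were called, 5 higher and 6 lower after hatching, and 14.3% of all genes were called, 6.96% higher and 7.39% lower. In IVF embryos 0 of the 75 were called, and 0.0451% of all genes were. At an unadjusted p under 0.05, 0 of the 75 genes passed in IVF embryos, against 3.83% of all genes, and DESeq2 also called 0. The IVF changes lay between -0.43 and 0.36 on the log2 scale with standard errors of 0.15 to 0.34, over the 74 genes other than MRPL53.

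Higher after hatching in vivo were MRPL12, MRPS12, MRPS27, MRPL43 and MRPL51. MRPL12 was at 11.5 and 19.1 CPM in in vivo blastocysts and at 53.9 (unnumbered) and 28.3 CPM after hatching, a log2 fold change of 1.38 ± 0.35 (adjusted p = 0.0224, edgeR). MRPS12 was at 160.4 and 136 CPM and then at 404 and 265 CPM, with 1.09 ± 0.27 (adjusted p = 0.0221, edgeR). Both stalk and decoding-centre genes were highest in the unnumbered hatched library. MRPS27, a pentatricopeptide repeat protein of the small subunit, was at 127 and 168 CPM and then at 320.0 and 283 CPM (0.96 ± 0.24). MRPL51 had 0.94 ± 0.23 and MRPL43, within TWNK, 0.97 ± 0.29.

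Lower after hatching in vivo were MRPL37, MRPS9, MRPS15, MRPS18B, MRPL3 and MRPS18C. MRPL37, highest in mean FPKM (chromosome 6, 158091873 to 158143529), was at 822 and 946 CPM in in vivo blastocysts and at 519.8 and 427 CPM after hatching, a log2 fold change of -0.97 ± 0.22 (adjusted p = 0.0134, edgeR). In IVF embryos it was at 633, 585 and 559.6 CPM before and 623, 735 and 626 CPM after. The in vivo blastocyst libraries thus held its highest values of all 13. MRPS9 went from 242 and 208 CPM to 114 and 109 CPM in vivo (-1.09 ± 0.25), and MRPS15 from 365 and 235 CPM to 132 and 128 CPM (-1.31 ± 0.31). MRPS18B had -1.12 ± 0.29, MRPL3, a counterpart of bacterial L3, -0.91 ± 0.26, and MRPS18C -0.95 ± 0.28. Of the genes given throughout and not called, MRPL58 had 0.16 ± 0.26, MRPS18A -0.47 ± 0.23, MRPS30 -0.33 ± 0.27 and MRPS36 0.38 ± 0.41.

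The in vivo hatching and the blastocyst origin comparisons share the in vivo blastocyst libraries, so MRPS9, MRPS15, MRPS18B and MRPL51 appear in both lists through the same 2 libraries. The in vivo hatched libraries also differed, as given above for mitochondrial messages and hypoblast markers, and the part of that in these changes was not tested. Without the unnumbered hatched library 6 genes were called, all lower, and without hatched library 2 another count of 6 was reached, all higher. Without in vivo blastocyst library 1 the count was 1, and with all 13 libraries in 1 fit it was 0.

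Around the ribosome, hatching in vivo went with calls in both directions, against 6.96% of all genes higher and 7.39% lower. Translation factors had 1 of 13 genes higher (TACO1, 1.17 ± 0.36) and 3 lower, led by MTFMT, which formylates the initiator tRNA (-1.47 ± 0.30). Assembly factors had 2 of 21 higher, led by DHX30 (1.82 ± 0.39), and 2 lower, led by the 16S methyltransferase MRM2 (-1.36 ± 0.26). ELAC2 (2.10 ± 0.27) led 2 higher genes of 15 in transcription and processing, and TARS2 (0.97 ± 0.26) was the 1 synthetase of 19 called. In IVF embryos 0 genes of these lists were called at hatching.

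The difference between the hatching changes of the 2 origins was tested directly. It was called for 2 of the 75 genes, both higher in IVF, against 4.71% of all genes (2.79% higher and 1.93% lower). For MRPS9 the IVF change was higher by 1.46 ± 0.33 on the log2 scale (adjusted p = 0.0304, edgeR), as it went from 97.7, 108 and 133 CPM to 137, 163 and 124 CPM in IVF embryos. For MRPL37 the difference was 1.17 ± 0.28 (adjusted p = 0.038, edgeR). MRPS18B had 1.32 ± 0.38 (adjusted p = 0.0682, edgeR), MRPL12 had -1.15 ± 0.44 (adjusted p = 0.156, edgeR) and MRPS12 had -0.94 ± 0.35 (adjusted p = 0.147, edgeR). For the other 9 genes called at hatching in vivo, a difference between origins was therefore not shown. The MRPL37 call was lost when any 1 IVF blastocyst or IVF hatched library was left out. Both calls were lost without IVF blastocyst library 1 or 2, without IVF hatched library 1 or 2, without in vivo blastocyst library 1 and without in vivo hatched library 2.

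**Figure D5:**
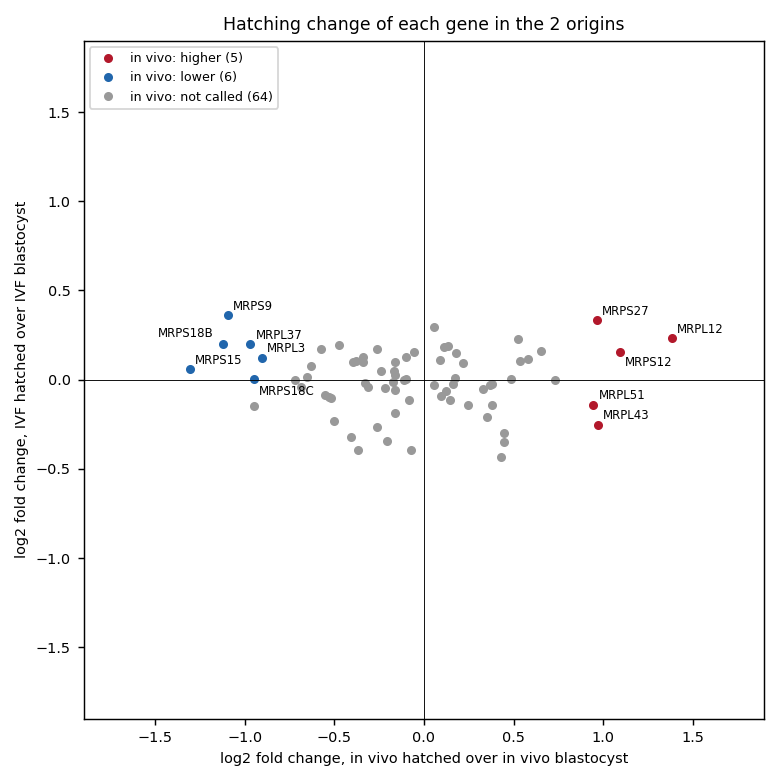
Log2 fold change at hatching of 74 genes in in vivo embryos (horizontal axis) and in IVF embryos (vertical axis), coloured by the in vivo call; MRPL53, at -14.6 in vivo, lies outside the axes. The called genes spread from -1.31 (MRPS15) to 1.38 (MRPL12) along the in vivo axis, while all 74 lie between -0.43 and 0.36 along the IVF axis.

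Over the 4 comparisons among blastocyst and hatched groups, 59 of the 75 genes (78.7%) were called in none, against 75.1% of all genes tested. Among the 7546 tested genes whose mean CPM was at least that of the lowest member, 61.6% were called in none. Over the 10 libraries the highest value of a gene was a median of 1.93 times its lowest, for the 74 genes other than MRPL53. The median was 5.08 times over all genes tested, many of them at lower counts, and 2.76 times over those 7546 genes. Within the 74 genes the ratio was smallest for MRPL15, at 1.38, and largest for MRPL12, at 4.71, and it exceeded 3 in 4 genes.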

How the data were processed

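RNA-seq of 13 libraries was read from 1 deposited gene table with 39 value columns, of which 25 were used: 13 of whole-number read counts and 12 of FPKM (fragments per kilobase and 1000000 reads), both deposited by the authors. The other 14 columns (13 of TPM and the FPKM of in vivo hatched library 1, whose count column could not be named) were not used. The build Sscrofa11.1 and the tools StringTie 1.3.1, RSEM, HISAT2, Bowtie2 and fastp 0.18.0 were used per the submitters' processing notes, which give them no role or order here. The counting setting, annotation release and use of strand are not given in the sources used here. Members, lists and tests were chosen with earlier results of these data known.

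Counts were tested with edgeR 4.0.16 in R 4.3.3 (TMM, filterByExpr, quasi-likelihood F test, Benjamini-Hochberg over all genes, adjusted p under 0.05), with no covariates. One fit held the 10 blastocyst and hatched libraries and another the 9 IVF libraries. DESeq2 1.42.0 was an alternative, as were other scalings, no filter, a single fit of 13 libraries, a replicate block and leaving out each library. CPM is counts per 1000000 of the library total, and FPKM was used to compare levels between genes. Named members are the 5 called genes with the smallest p on each side of a comparison, 8 genes given in every comparison (MRPL12, MRPS12, MRPL58, MRPS18A, MRPS18B, MRPS18C, MRPS30, MRPS36), and the 3 highest and 3 lowest by mean FPKM. Of each related list, the called gene with the smallest p in each direction is named. MRPL4, MRPL11, MRPL15, MRPL23, MRPL28, MRPL30, MRPL46, MRPL53, MRPS7 and MRPS11, and the marker genes, were named after their values were seen. No 2 libraries of a group agreed within counting error, the smallest chi-square divided by its degrees of freedom being 72.5. The scripts were tested on simulated counts.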

Additional observations from a re-analysis of the deposited data

Results flagged for a closer look

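The change at hatching differed between IVF and in vivo embryos in 2 of the 75 genes, by a test of the difference itself, against 4.71% of all genes tested. For MRPL37 the IVF change was higher by 1.17 on the log2 scale (adjusted p = 0.038, edgeR), with higher CPM in both in vivo blastocyst libraries than in either in vivo hatched library. For MRPS9 the IVF change was higher by 1.46 (adjusted p = 0.0304, edgeR), with the same order of the in vivo libraries. The MRPL37 call was lost when any 1 IVF blastocyst or IVF hatched library was left out. The MRPS9 call was lost without IVF blastocyst library 1 or 2 and without IVF hatched library 1 or 2. Neither call held against removal of every in vivo library, as given in the Results. With any 1 library left out, in vivo ones included, the difference was 0.98 to 1.37 for MRPL37 and 1.21 to 1.64 for MRPS9.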

How the results depend on the processing

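In the stage comparisons the number of members called, 54 in each, stayed within 1.5 times under every alternative run: 47 to 64 and 48 to 64 when a library was left out, the highest without 4-cell library 1. Scaling by library size alone moved the median of all genes to -0.50 and -0.55 (from -0.23 and -0.24) and the members' calls to 44 higher and 5 lower, and 44 and 6. The 47 results for named members that were called kept their sign under every alternative run, whereas 18 of the 43 that were not called changed it under at least 1. MRPS30 in IVF blastocysts against 4-cell embryos was at -0.09, and at 0.46 without 4-cell library 1. IVF hatching gave 0 calls throughout.

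The other counts depended on the processing, and the cause was not tested. For most of these fits the share of all genes called is not given here. The counts therefore say nothing of the members relative to all genes. For IVF against in vivo blastocysts (9) they were 14 with no filter, 20 with DESeq2, 0 with all 13 libraries in 1 fit, and 0 to 7 leaving out a library. For hatched blastocysts by origin (1) they were 2 with RLE size factors, 3 with library size only, 2 with no filter, 4 with DESeq2, 0 with 13 libraries, and 0 to 4 leaving out a library, the highest without the unnumbered in vivo library. For in vivo hatching (11) they were 0 with 13 libraries and 1 to 8 leaving out a library. For the difference in hatching (2) they were 6 with no filter, 7 with DESeq2, 0 with 13 libraries, and 0 to 4 leaving out a library.

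The labels do not say what a replicate number marks. Deviations of same-numbered libraries correlated at -0.229 to 0.0356. Pairing by number was thus not shown, and it cannot be decided, since differently numbered libraries were not compared. With the replicate block the counts were 3 for blastocysts by origin, 2 for hatched blastocysts by origin, 1 for in vivo hatching, 0 for the difference in hatching, 0 for IVF hatching, and 53 and 54 for the stage comparisons. The unnumbered library was left out of that fit, and the share of all genes called in it is not given here. With 2 in vivo libraries per stage, leaving 1 out leaves a lone library assumed to vary like the other groups. A count of 0 allows up to 3 counts, or 0.0764 to 0.0902 CPM by library, for counting error only.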

Other observations

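The poly(A)-selected libraries also held reads of the 2 mitochondrial ribosomal RNAs, which are not among the 75 genes and were looked at after the values were seen. The 16S RNA, of the large subunit, was at 194, 233 and 110 CPM in 4-cell libraries, 249, 143 and 185 in IVF blastocysts and 206, 64.8 and 97.9 in IVF hatched blastocysts. It was at 19.7 and 88.7 CPM in in vivo blastocysts and at 442 (unnumbered) and 209 CPM in in vivo hatched blastocysts. The 12S RNA, of the small subunit, ranged from 6.72 CPM in in vivo blastocyst library 1 to 32.4 CPM in the unnumbered in vivo hatched library. Selection for poly(A) tails limits what these values say of ribosomal RNA content.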
